A study of Mus musculus with 10 samples.

Results

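The genes that set the pace of the G1 phase of the cell cycle were examined in sorted cells of the embryonic mouse brain: the D-type cyclins *Ccnd1*, *Ccnd2* and *Ccnd3*, their kinase partners *Cdk4* and *Cdk6*, and the CDK inhibitors *Cdkn1a*, *Cdkn1b*, *Cdkn1c*, *Cdkn2c* and *Cdkn2d*. They were chosen by symbol, and all 10 were found among the 14300 genes counted. RNA was sequenced from cells of *Grem1creERT; Rosa26LSLTdtomato* embryos on the C57BL/6J strain, in which a tamoxifen-inducible Cre is expressed from *Grem1* and switches on a TdTomato reporter at the *Rosa26* locus. Tamoxifen was given at E13.5 and the telencephalon was collected 24 h later, so that TdTomato+ cells are those in which *Grem1*-driven Cre was active after the tamoxifen, and their progeny. The TdTomato− cells are all other live cells of the same sort, from the same reporter line and after the same tamoxifen, and hold many cell types. Each of 5 mice, numbered 2 to 6, gave 1 library of each population.

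D-type cyclins accumulate in response to growth signals and activate CDK4 and CDK6, which phosphorylate the retinoblastoma family of pocket proteins and so release E2F transcription factors that carry a cell into S phase. The INK4 inhibitors, to which *Cdkn2c* (p18) and *Cdkn2d* (p19) belong, bind CDK4 and CDK6 themselves, whereas the Cip/Kip inhibitors *Cdkn1a* (p21), *Cdkn1b* (p27) and *Cdkn1c* (p57) act on cyclin-CDK complexes more widely. In the developing cortex the D-type cyclins and CDK4/6 are best known in radial glia and intermediate progenitors, and the inhibitors are best known for holding cells that leave the cycle to become neurons.

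Libraries held 23542791 to 27286180 counts in the TdTomato− population and 23429034 to 24545138 in the TdTomato+ population. Levels are given as CPM, counts scaled to a common library total after TMM scaling. *Grem1* itself, the gene that drives the Cre, went from 6.11±0.731 CPM in the TdTomato− population to 63.3±3.10 CPM in the TdTomato+ population (mean±s.d., n=5), in the direction of the labels. All 8 markers of cortical projection neurons rose in TdTomato+ cells, with a summed level of 13780 to 15120 CPM against 5880 to 6924 CPM. All 8 radial glial markers fell (summed 128 to 176 CPM against 1572 to 1848 CPM), as did all 5 markers of intermediate progenitors (65.9 to 120 CPM against 896 to 1130 CPM) and all 8 of interneurons (56.3 to 84.1 CPM against 1761 to 2214 CPM). All 7 microglial markers fell, from a sum of 15.2 to 68.9 CPM to one of 0.771 to 1.76 CPM, with 4 of them at or under 3 counts in every TdTomato+ library. Erythroid markers, 5 of 7 counted, all fell from 74.2 to 258 CPM to 1.18 to 25.7 CPM, and the 5 Cajal-Retzius markers all fell from 212 to 378 CPM to 127 to 155 CPM. Most of that sum was *Reln*, of which 55.6% was left, while 7.98 to 38.2% was left of the other 4, with a median log2 fold change of −2.81 over the list. Endothelial markers (3 of 7 counted, 1 lower), pericyte markers (4 of 5 counted, 3 lower) and meningeal markers (2 of 5 counted, 1 lower) summed to at most 18.8 CPM in any library. No marker in the table was at 0 in every TdTomato+ library. In bulk libraries of this kind, fewer cells of a type and less RNA per cell cannot be told apart.

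Of the 10 genes, 9 were lower in TdTomato+ than in TdTomato− cells at an adjusted p of 0.05 or less in edgeR, and none was higher. The difference between the populations was wide: 77.3% of all genes passed that threshold in either direction, 39.4% lower and 37.9% higher. With a log2 fold change of −2 or less as well, 4 of the 10 genes passed (*Ccnd1*, *Ccnd2*, *Cdk6* and *Cdkn2c*), against 9.74% of all genes. The CPM ranges of the 5 mice did not overlap, with TdTomato+ below, for 8 of the 10 genes and for 32.4% of all genes. The median log2 fold change of the 10 genes was −1.29, and that of all genes tested was −0.0063. The 10 genes fell into a group of 4 left at 2.02 to 4.88% of the TdTomato− mean in TdTomato+ cells, a group of 4 left at 34.5 to 53.6%, and 2 inhibitors, *Cdkn1c* and *Cdkn2d*, whose ranges overlapped between the populations.

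**Figure D1:**
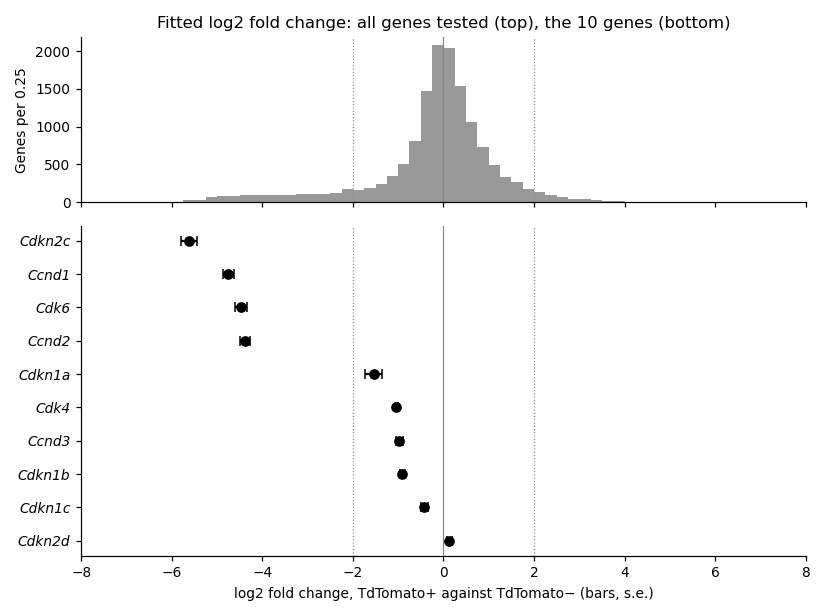
The upper panel is a histogram of the fitted log2 fold change (TdTomato+ against TdTomato−) of all 14300 genes, and the lower panel gives the 10 genes with bars of 1 s.e.; dotted lines mark −2 and 2. *Cdkn2c*, *Ccnd1*, *Cdk6* and *Ccnd2* lie between −5.62 and −4.38, while *Cdkn2d* lies at 0.13.

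Among the D-type cyclins, *Ccnd2* (chr6:127125162-127152193, GRCm38, minus strand) had the highest level per kb of exonic sequence in both populations. In mice 2 to 6 in turn, TdTomato− cells held 1027, 880, 735, 1028 and 897 CPM of *Ccnd2*. TdTomato+ cells of the same mice held 44.3, 38.6, 29.1, 50.9 and 60.3 CPM. The lowest TdTomato− library was therefore far above the highest TdTomato+ library, and the fitted log2 fold change was −4.38±0.11 (s.e., adjusted p=3.1e-09). *Ccnd1* (chr7:144929931-144939925, minus strand), the cyclin most closely tied to mitogen signalling, was at 67.3, 112, 117, 75.4 and 72.9 CPM in TdTomato− cells. It was at 1.45, 4.29, 4.11, 3.39 and 3.25 CPM in TdTomato+ cells, from 32 to 99 counts a library. Again no ranges overlapped, and the log2 fold change was −4.76±0.12 (adjusted p=3.6e-09). *Ccnd3* (chr17:47505051-47599691, plus strand), a D-type cyclin often retained in differentiating cells, was at 29.1, 32.5, 31.4, 32.8 and 33.6 CPM in TdTomato− cells. It kept 17.4, 13.5, 15.1, 17.6 and 17.7 CPM in TdTomato+ cells. The ranges did not overlap, but on average 51.1% of the TdTomato− level was left (log2 fold change −0.97±0.08, adjusted p=3.0e-06).

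Within each mouse the log2 change of *Ccnd2* was more negative than that of *Ccnd3* in 5 of 5 mice (mean difference −3.41±0.32, s.d., range −3.80 to −2.975). The log2 changes of *Ccnd1* and *Ccnd2* lay closer, with a mean difference of −0.38±0.36 and a range over mice of −0.93 to −0.11. With 5 mice, an exact sign-flip test of such a difference cannot go below a two-sided p of 0.0625, so neither difference was tested beyond its range. Per length, as CPM per kb of exonic sequence, *Ccnd2* made up 80.9% (73.3 to 86.1%) of the D-type cyclins in TdTomato− cells and 64.2% (54.4 to 70.3%) in TdTomato+ cells. The share of *Ccnd3* on the same scale went from 3.05% (2.61 to 3.36%) to 25.8% (22.2 to 30.3%), without overlap, and that of *Ccnd1* from 16.0% to 10.02%, with overlap. Within each mouse the *Ccnd1* share was lower in the TdTomato+ library. The summed level of the 3 cyclins was 120±9.16 CPM per kb in TdTomato− cells and 7.30±1.35 CPM per kb in TdTomato+ cells. These shares depend on the length used. With the longest transcript in place of the whole exonic sequence, *Ccnd3* made up 4.71% of the D-type cyclins per kb in TdTomato− and 35.1% in TdTomato+ cells, *Ccnd2* 57.3% in TdTomato+ cells, and the summed levels were 176 and 12.2 CPM per kb.

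The kinases split in the same way as the cyclins. *Cdk4* (chr10:127063534-127067920, plus strand) was at 516, 576, 564, 580 and 581 CPM in TdTomato− cells of mice 2 to 6. It was at 262, 277, 279, 258 and 294 CPM in TdTomato+ cells. The ranges were apart, and the fold was even from mouse to mouse, with 44.5 to 50.8% left in each (log2 fold change −1.04±0.04, adjusted p=3.1e-08). *Cdk6* (chr5:3341485-3531008, plus strand), the alternative partner of the D-type cyclins, was at 141, 109, 87.8, 129 and 124 CPM in TdTomato− cells. TdTomato+ cells held 4.94, 4.86, 2.61, 7.17 and 7.59 CPM of it. The fitted log2 fold change was −4.47±0.14 (adjusted p=8.2e-09). Every TdTomato+ library lay below every TdTomato− library for both kinases. The log2 change of *Cdk6* was more negative than that of *Cdk4* in 5 of 5 mice, with a difference of −4.02 to −2.99. On the scale of CPM per kb, *Cdk4* made up 95.3% (94.0 to 96.5%) of the pair in TdTomato− cells and 99.5% (99.4 to 99.8%) in TdTomato+ cells, where *Cdk4* remained the highest of the 10 genes at 84.3±4.43 CPM per kb. The TdTomato− share of *Cdk4* was 96.4% when the longest transcript was taken as the length.

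**Figure D2:**
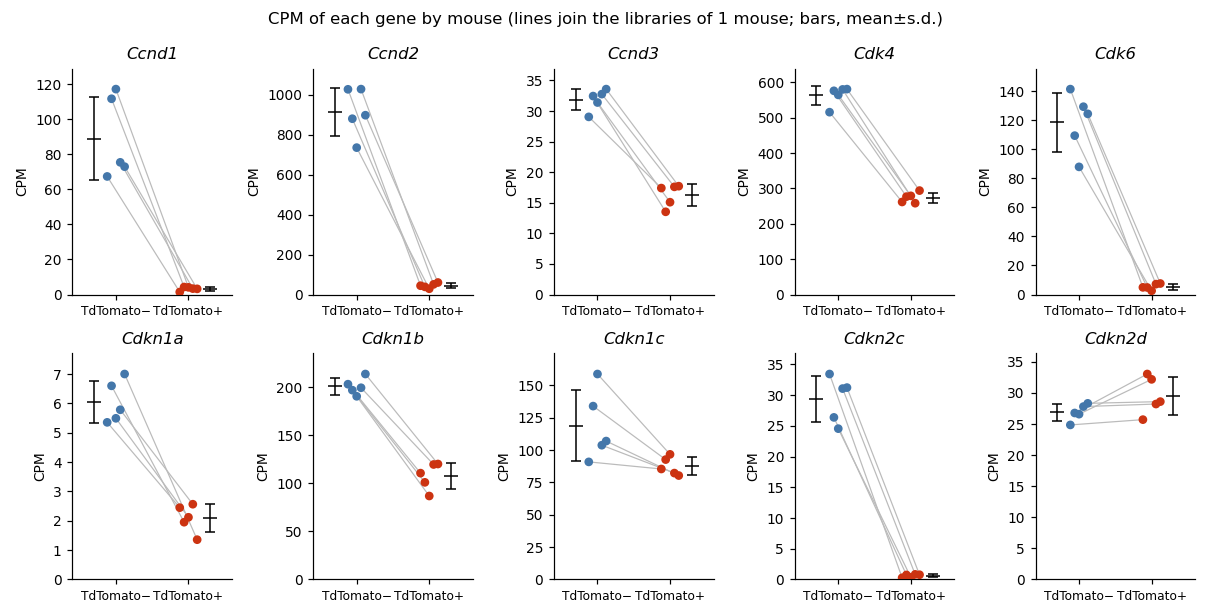
CPM (linear axes from 0) of each of the 10 genes in the TdTomato− (blue) and TdTomato+ (red) library of each mouse, joined by a line, with mean±s.d. beside the points (n=5). The points of the populations are apart for 8 genes, and those of *Cdkn1c* and *Cdkn2d* overlap.

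Promoter windows from RefSeq (GRCm38.p6, 250 bases before to 50 after a start) were given for 7 of the 10 genes, in 10 windows, with none for *Ccnd1*, *Ccnd2* and *Cdkn1c*. E2F binding motifs in 4 spellings (TTTGGCGC, TTTCGCGC, TTTCCCGC and TTTGCCGC, on both strands) were in 0 of the 10 windows and in 2.26% of all 32851 windows. After the windows had been read, CACGTG, the palindromic E-box bound by MYC and related factors, was also searched: it was in 7.15% of all windows. The windows of both kinases held it, and they are shown because these genes form 1 pair with unlike changes. *Cdk4* has 4 copies, which start 172, 118, 98 and 11 bases before the RefSeq start, and 4 or more copies were in 8 of the 32851 windows (0.0244%). That cut is the count of *Cdk4* itself, set after the windows had been read, so the share is a description only. *Cdk6* has 1 copy, 220 bases before the start. One of the 2 windows of *Cdkn2c* also held a copy, 34 bases after the start. Capitals mark CACGTG in the sequences of the 250 bases before the start, both on the plus strand, and a match in letters says nothing on whether a factor was bound.
*Cdk4* (chr10:127063285-127063534): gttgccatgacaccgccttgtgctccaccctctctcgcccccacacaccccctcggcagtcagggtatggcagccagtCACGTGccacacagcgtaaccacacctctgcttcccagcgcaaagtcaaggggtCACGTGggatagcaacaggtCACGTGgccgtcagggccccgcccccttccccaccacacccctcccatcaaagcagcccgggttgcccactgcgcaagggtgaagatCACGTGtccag
*Cdk6* (chr5:3343643-3343892): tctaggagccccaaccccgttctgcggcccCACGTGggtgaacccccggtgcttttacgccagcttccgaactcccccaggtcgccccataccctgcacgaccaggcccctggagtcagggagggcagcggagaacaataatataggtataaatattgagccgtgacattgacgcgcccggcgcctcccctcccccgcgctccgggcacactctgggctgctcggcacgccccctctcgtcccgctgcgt

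Of the INK4 inhibitors, *Cdkn2c* (chr4:109660876-109667189, minus strand), which encodes p18 and is known from dividing neural progenitors, had the largest change of the 10 genes. In TdTomato− cells it was at 33.4, 26.4, 24.5, 31.1 and 31.2 CPM. In TdTomato+ cells it was at 0.272, 0.737, 0.353, 0.826 and 0.768 CPM, which are 6 to 19 counts a library and stay above the floor of 3 counts. The log2 fold change was −5.62±0.18 (adjusted p=1.0e-08), the 33rd lowest of the 14300 genes, with 2.02% of the TdTomato− mean left. *Cdkn2d* (chr9:21288410-21291407, minus strand), which encodes p19 and is known from postmitotic neurons, was at 24.9, 26.8, 26.6, 27.8 and 28.3 CPM in TdTomato− cells. It was at 25.7, 33.1, 32.2, 28.2 and 28.6 CPM in TdTomato+ cells. Each mouse was higher in its TdTomato+ library, by 0.01 to 0.30 on the log2 scale, but the ranges overlapped and the fitted difference did not pass the threshold (log2 fold change 0.13±0.06, adjusted p=0.080). Its sign turned to −0.044 (adjusted p=0.55) when libraries were scaled by total counts alone, a scaling that moved the median of all genes by −0.18. Within a mouse, the log2 change of *Cdkn2c* minus that of *Cdkn2d* was −6.62 to −5.12. On the scale of CPM per kb, the share of *Cdkn2d* among both INK4 genes was 61.1% (55.9 to 64.9%) in TdTomato− cells and 98.8% (98.3 to 99.4%) in TdTomato+ cells.

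All 3 Cip/Kip inhibitors were lower in TdTomato+ cells, by different amounts. *Cdkn1b* (chr6:134920401-134925513, plus strand), which encodes p27, was at 203, 197, 191, 200 and 214 CPM in TdTomato− cells. It was at 111, 101, 86.9, 120 and 120 CPM in TdTomato+ cells. No ranges overlapped, and 45.6 to 59.95% was left in each mouse (log2 fold change −0.91±0.06, adjusted p=6.8e-07). *Cdkn1c* (chr7:143458339-143461050, minus strand), an imprinted gene that encodes p57, was at 90.8, 134, 159, 104 and 107 CPM in TdTomato− cells. In TdTomato+ cells it was at 85.3, 92.6, 96.6, 82.2 and 80.3 CPM. Each mouse was lower in its TdTomato+ library, though the ranges overlapped and the share left ran from 60.9% in mouse 4 to 94.0% in mouse 2 (log2 fold change −0.42±0.08, adjusted p=0.0010). The log2 change of *Cdkn1c* was less negative than that of *Cdkn1b* in 5 of 5 mice, by 0.40 to 0.79.

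*Cdkn1a* (chr17:29090976-29100727, plus strand), which encodes p21 and is the best known target of p53, was the lowest Cip/Kip gene in both populations. TdTomato− cells held 5.36, 6.60, 5.49, 5.79 and 7.004 CPM of it, from 137 to 201 counts a library. TdTomato+ cells held 2.45, 1.95, 2.12, 2.57 and 1.36 CPM, from 30 to 59 counts. The ranges did not overlap, and the log2 fold change was −1.54±0.19 (adjusted p=6.0e-05), with an s.e. that was the largest of the 10 genes. One of its 2 RefSeq windows, at the upstream start, is shown because its letters match the p53 response element, a motif searched after the windows had been read. The match starts 51 bases before that start and has 1 mismatch to the pair of adjacent half-sites. Matches with at most 1 mismatch were in 29 of all 32851 windows (0.0883%), and in no other window of the 10 genes, the second *Cdkn1a* window included. This limit on mismatches was also set after the windows had been read, so the share is a description only. Capitals mark the match in the 91 bases before the upstream start, on the plus strand of GRCm38.p6.
*Cdkn1a* (chr17:29090888-29090978): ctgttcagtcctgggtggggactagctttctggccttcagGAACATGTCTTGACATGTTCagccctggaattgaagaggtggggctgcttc

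On the scale of CPM per kb of exonic sequence, the order of the mean levels in TdTomato− cells was *Cdk4* (173±8.45), *Ccnd2* (97.1±12.9), *Cdkn1c* (58.3±13.4), *Cdkn1b* (44.1±1.88), *Ccnd1* (18.9±5.00), *Cdkn2d* (17.1±0.849), *Cdkn2c* (10.9±1.38), *Cdk6* (8.46±1.47), *Ccnd3* (3.63±0.200) and *Cdkn1a* (1.70±0.203). The neighbours *Cdkn1c* and *Cdkn1b*, *Ccnd1* and *Cdkn2d*, and *Cdkn2c* and *Cdk6* overlapped in their ranges over mice. In TdTomato+ cells *Cdk4* again led, followed by *Cdkn1c* (42.9±3.42 CPM per kb), *Cdkn1b* (23.7±3.08), *Cdkn2d* (18.8±1.92), *Ccnd2* (4.74±1.26), *Ccnd3* (1.86±0.214), *Ccnd1* (0.701±0.239), *Cdkn1a* (0.588±0.135), *Cdk6* (0.389±0.144) and *Cdkn2c* (0.220±0.0961). The places directly below *Cdk4* were thus taken by 3 inhibitors in TdTomato+ cells, where *Ccnd2* had stood second in TdTomato− cells. In that lower order the ranges of *Cdkn1b* and *Cdkn2d* overlapped, as did each pair of neighbours from *Ccnd1* down to *Cdkn2c*. With the longest transcript as length, *Ccnd3* was at 8.26 and 4.22 CPM per kb in TdTomato− and TdTomato+ cells, *Cdk4* at 274 and 133 and *Cdkn1a* at 2.91 and 1.004. The order changed only in TdTomato+ cells, where *Cdkn1a* came before *Ccnd1*.

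The 5 inhibitors summed to 132±10.9 CPM per kb in TdTomato− cells and 86.1±2.46 CPM per kb in TdTomato+ cells. Their ratio to the 3 D-type cyclins on this scale was 1.12 (0.939 to 1.38) in TdTomato− cells and 12.2 (9.29 to 15.4) in TdTomato+ cells. With the longest transcript as length the ratios were 0.804 and 7.76. *Cdk4* and *Cdk6* together stood to the D-type cyclins at 1.53 (1.33 to 1.69) in TdTomato− cells and at 11.9 (9.83 to 15.1) in TdTomato+ cells. In either population the mean Cip/Kip share of *Cdkn1c* per kb was the largest, at 55.4% (49.1 to 64.2%) in TdTomato− and 63.9% (59.5 to 70.7%) in TdTomato+ cells, and these ranges overlapped. Within each mouse the *Cdkn1c* share was higher in the TdTomato+ library. *Cdkn1b* held 42.9% and 35.3% of that family per kb (in the TdTomato− library of mouse 2, 49.2% beside 49.1% for *Cdkn1c*), and *Cdkn1a* 1.65% and 0.875% (2.68% and 1.42% with the longest transcript). These shares and ratios describe RNA in a library and were given no test.

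**Figure D3:**
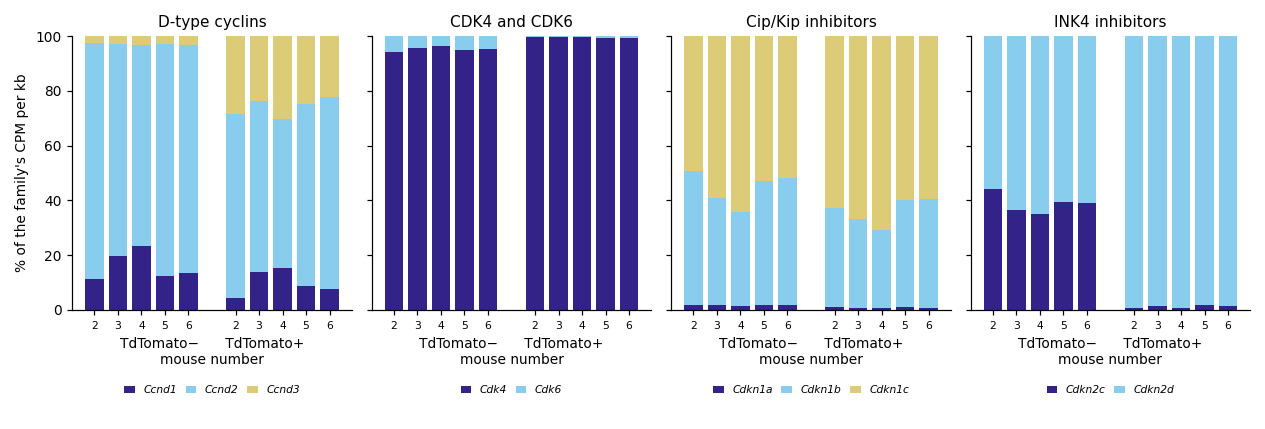
Stacked bars give the share (%) of each gene in its family's summed CPM per kb, for the TdTomato− (left) and TdTomato+ (right) library of mice 2 to 6. With whole exonic length, *Ccnd3* goes from a mean of 3.05% to 25.8% of D-type cyclins (4.71% to 35.1% with the longest transcript), *Cdk4* from 95.3% to 99.5% of the kinase pair and *Cdkn2d* from 61.1% to 98.8% of the INK4 pair.

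Mice 3 and 4 stood together in several of the 10 genes, a grouping seen in the values and not tested. In TdTomato− cells *Ccnd1* was at 112 and 117 CPM in these mice and at 67.3 to 75.4 CPM in the others, and *Cdkn1c* was at 134 and 159 CPM against 90.8 to 107 CPM. *Ccnd2*, *Cdk6* and *Cdkn2c* were each lowest in mice 4 and 3. In TdTomato+ cells *Ccnd1* and *Cdkn1c* were again highest in mice 3 and 4, and *Ccnd2*, *Cdk6*, *Cdkn1b* and *Ccnd3* were lowest there. *Cdkn2d* was at 33.1 and 32.2 CPM in TdTomato+ cells of mice 3 and 4 and at 25.7 to 28.6 CPM in those of the others. In the TdTomato− libraries of mice 3 and 4 the 5 Cajal-Retzius markers summed to 342 and 378 CPM against 212 to 277 CPM in the others, and the 7 microglial markers to 15.2 and 20.1 CPM against 53.3 to 68.9 CPM. Erythroid markers (74.2 and 103 CPM against 109 to 258 CPM) and pericyte markers (13.0 and 11.6 CPM against 17.0 to 18.8 CPM) were also lower there, and meningeal markers (2.90 and 5.29 CPM against 1.88 to 2.50 CPM) and projection neuron markers (6720 and 6924 CPM against 5880 to 6481 CPM) were higher. The summed levels of the other marker lists did not separate these mice in TdTomato− libraries. In the TdTomato+ libraries of mice 3 and 4, intermediate progenitor markers were lowest (76.55 and 65.9 CPM against 82.2 to 120 CPM). Interneuron markers (84.1 and 78.8 CPM against 56.3 to 72.9 CPM) and erythroid markers (8.72 and 25.7 CPM against 1.18 to 5.15 CPM) were highest there. The other lists did not separate these mice in TdTomato+ libraries. The part of these cell types in the levels of the 10 genes was not tested.

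The RNA that the depleted genes kept in TdTomato+ cells can be set beside that of progenitor genes in the same libraries. *Cdkn2c* kept 2.02%, *Ccnd1* 3.71%, *Cdk6* 4.59% and *Ccnd2* 4.88% of the TdTomato− mean CPM. The 13 genes of a list of S to M phase cyclins and proliferation markers kept 2.11% (*Cdk1*) to 21.2% (*Pcna*). The 8 radial glial markers kept 2.57% (*Hes5*) to 21.5% (*Slc1a3*), and the 5 markers of intermediate progenitors 3.05% (*Mfng*) to 17.0% (*Insm1*). These genes were named here as the ends of each range. *Cdkn1a*, *Cdk4*, *Ccnd3* and *Cdkn1b*, at 34.5, 48.6, 51.1 and 53.6%, lay above the highest gene of these lists. The part of progenitor RNA in these remainders was not tested.

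The rest of the G1 to S pathway was read from gene lists in the same fit, whose counts stand beside 39.4% lower and 37.9% higher over all genes. In the cyclin E-CDK2 arm, which follows the D-type cyclins, 7 of 10 genes were lower, 1 was higher and 2 were not called, with a median log2 fold change of −1.40 against −0.0063 over all genes. *Cdk2*, the kinase of this arm, fell with a log2 fold change of −4.82±0.12, as did its cyclins *Ccne2* (−3.07±0.17) and *Ccne1* (−2.53±0.13). The higher gene, named here after its value was seen, was *Cdk7* of the CDK-activating kinase (0.16±0.05, adjusted p=0.019). That call was lost without mouse 3 or without mouse 5 and with scaling by total counts alone, and without mouse 6 there were 2 higher genes. Of the 17 pocket protein, E2F and associated genes, 15 were lower, 0 were higher and 2 were not called (median −1.03). *E2f8* (−5.20±0.16), *E2f2* (−5.15±0.21), the pocket protein gene *Rbl1* (−3.16±0.09) and *E2f1*, the classic activator of S phase genes (−2.55±0.08), all fell. *Rb1*, the retinoblastoma gene itself, changed by −0.16±0.05 (adjusted p=0.010), a call that was lost without the mouse block (adjusted p=0.064). Without mouse 2, or with RLE scaling, 1 gene of this list was called higher.

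All 13 genes of the S to M phase list were lower past both thresholds, which 9.74% of all genes were, with a median of −4.60. The mitotic kinase *Cdk1* (−5.57±0.22), *Aurkb* (−5.56±0.13), *Top2a* (−5.47±0.20) and *Mki67* (−5.26±0.21) had values of the size seen for *Cdkn2c* (−5.62) and *Ccnd1* (−4.76). Of 15 genes of the p53 pathway, to which *Cdkn1a* belongs as a target, 8 were lower, 5 were higher and 2 were not called (median −0.18). Beside 39.4% lower and 37.9% higher over all genes, these counts do not set the list apart. *Trp53* (−0.97±0.06) fell, as did *Mdm2*, its negative regulator and target (−0.18±0.06, adjusted p=0.021), and the target *Eda2r* (−2.02±0.29). The call of *Mdm2* was lost without mouse 2 (−0.12, adjusted p=0.054) or mouse 5 (−0.18, adjusted p=0.057), so that 7 genes were then lower, and the list's higher genes numbered 4 without the block between libraries of a mouse. *Plk2* (1.74±0.06) and the pro-apoptotic *Pmaip1* (1.45±0.17) rose, in the opposite direction to *Cdkn1a*. Not all kinases and cyclins of the family fell. Of 12 neuronal and atypical CDKs and cyclins in the table, of 13 listed, 7 were higher, 1 was lower and 4 were not called (median 0.32). *Cdk5*, the kinase of postmitotic neurons, rose (0.50±0.04), with its activator *Cdk5r1* (0.57±0.05) and *Cdkl2* (3.455±0.13). The lower gene, named after its value was seen, was *Cdk14* (−0.41±0.12, adjusted p=0.014), a call that was lost without mouse 3. *Cdk18* was not in the table.

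**Figure D4:**
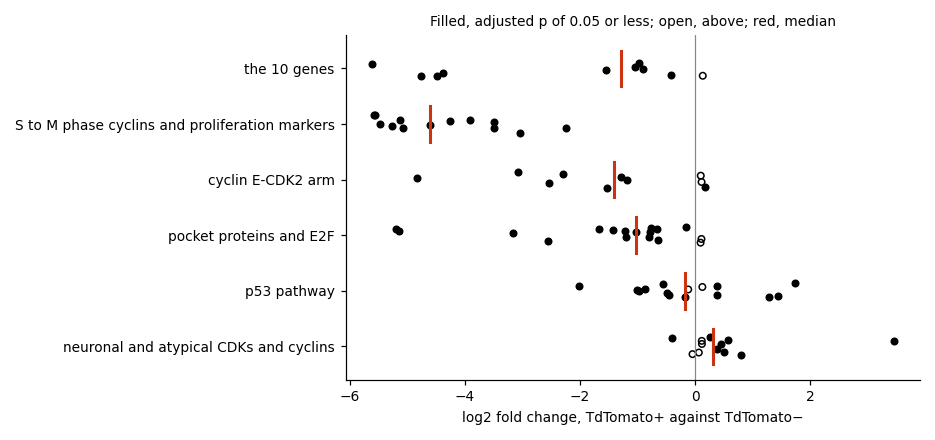
Each point is the fitted log2 fold change (TdTomato+ against TdTomato−) of 1 gene of a list, filled at an adjusted p of 0.05 or less, with the list's median in red. Medians run from −4.60 for the S to M phase list to 0.32 for the neuronal and atypical CDKs and cyclins, with the 10 genes at −1.29.

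Several of the 10 genes overlap another gene on the opposite strand in the GENCODE annotation. The paper describes the libraries as strand-specific. The strand setting of the counts is not given in the sources used here, so reads in the overlap cannot be assigned with certainty. The overlap covers 30.7% of the exonic bases of *Cdkn1c* (with *Gm44732*, whose mean was 1.63 CPM in the TdTomato− libraries and 1.13 CPM in the others). It covers 23.4% of those of *Ccnd1* (with *LTO1*, log2 fold change 0.06, adjusted p=0.36) and 19.7% of those of *Cdk4* (with *Tspan31*, −0.58, adjusted p=3.4e-06). *LTO1* was at 33.9±1.71 CPM in TdTomato+ cells, where *Ccnd1* was at 3.30±1.13 CPM. For *Cdkn1a*, *Ccnd3*, *Ccnd2* and *Cdk6* the overlap was 7.68, 4.11, 3.91 to 3.95 and 2.63% of the exonic bases, and *Cdkn1b*, *Cdkn2c* and *Cdkn2d* had none.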

How the data were processed

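The deposited table holds raw counts of reads per gene, which the authors made by trimming reads, aligning them with STAR (2.4.2a in the submitters' processing notes, which also name edgeR 3.28.0) to GRCm38 and counting uniquely mapped reads. The annotation release and strand column are not given in the sources used here. The sample descriptions (brain, a stranded poly-A kit) and the methods of the paper (dorsal telencephalon, another strand-specific kit) differ. Per the paper, outliers on a scaling plot were dropped, and all 10 libraries of the table were used here.

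The test across genes was edgeR 4.0.16 under R 4.3.3 (a filterByExpr step that removed no gene, TMM, glmQLFit and glmQLFTest, two-sided) with mouse as a block and Benjamini-Hochberg adjustment over 14300 genes. A gene was called at an adjusted p of 0.05 or less, and by a second rule also at a log2 fold change of 2 or more in size. Fitted fold changes used a prior count of 0.125, and log2 CPM used 2. TMM gave the TdTomato− libraries factors between 1.059 and 1.071, and those of TdTomato+ cells 0.929 to 0.946. Deviations from group means correlated at 0.186 to 0.316 between libraries with the same mouse number and at −0.312 to 0.212 between others. With mouse as a block, the p-values rest on the spread, over these 5 mice, of the difference between the populations within a mouse. The floor of 3 counts is 0.110 to 0.128 CPM and covers counting error only.

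Symbols (14271 matched, 29 without), positions and lengths came from GENCODE. The named genes were all 10 members and, of each list, the first 2 written and the 3 with the largest absolute change, of which 1 is not reported here by name. Members and lists were chosen with earlier results of these data known. On simulated data, 100% of 200 genes planted at a log2 change of 3 were recovered, and 0 unchanged genes were called. The simulation had no mouse effect, the same dispersion for all genes, and equal numbers of genes planted up and down. In these data 77.3% of genes were called, so the simulation does not test the scaling or the block under such conditions. Alternatives were RLE, upper-quartile and no scaling factors, DESeq2 1.42.0, other count filters, no block, a prior count of 2, TREAT, the longest transcript as length, and each mouse left out. Protein sequences were not used here.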

Additional observations from a re-analysis of the deposited data

Results flagged for a closer look

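Of the 20 sets of 5 libraries (10 genes in 2 populations), 2 had a library set apart from the rest on the log2 CPM scale by Dixon's ratio of gap to range, with a critical value of 0.71, and chance gives 1 of 20. Mouse 2 was the library in both. *Ccnd1* in TdTomato+ cells of mouse 2 was at 0.62 against 1.74 to 2.13 in the other mice (ratio 0.741). *Cdk4* in TdTomato− cells of mouse 2 was at 9.01 against 9.14 to 9.18 (ratio 0.762). Without mouse 2 both genes kept their direction and call.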

How the results depend on the processing

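Under each of 13 alternatives, 9 of the 10 genes kept their direction and their side of the threshold, and *Cdkn2d* did so under 12. Among these, leaving out the count filter repeats the main fit, because the filter removed no gene. The prior count of 2 changes the fitted folds but no adjusted p, so neither could change a call by adjusted p. Scaling by total counts alone moved the median log2 fold change of all genes by −0.18 and turned *Cdkn2d* to −0.044 (adjusted p from 0.064 to 0.55 over the alternatives). *Cdkn1c*, the smallest called change, ranged from −0.60 to −0.34, with adjusted p up to 0.0090. Without the mouse block, 10674 genes passed the adjusted p in place of 11056, and 9 and 4 of the 10 genes still passed the 2 rules; dropping the block changed no call of these 10, but lost that of *Rb1* (adjusted p=0.064) and took the higher genes of the p53 list from 5 to 4. TREAT against 2 left 1350 of the 1850 genes past both thresholds, and 4 of the 10. With total counts alone, the cyclin E-CDK2 arm had 0 higher genes and the neuronal and atypical list 2 lower genes, and with RLE the pocket protein and E2F list had 1 higher gene. Leaving out 1 mouse at a time, these counts ranged from 0 to 2, 0 to 1 and 0 to 1. With total counts alone, the p53 list had 9 lower and 4 higher genes and the neuronal and atypical list 6 higher genes. Without mouse 2 the p53 list had 6 higher genes, and without mouse 5 the neuronal and atypical list had 8. With the longest transcript as length, the TdTomato− and TdTomato+ shares were 4.71% and 35.1% for *Ccnd3* and 2.68% and 1.42% for *Cdkn1a*, the TdTomato+ share of *Ccnd2* was 57.3%, and the TdTomato− shares of *Cdk4* and *Cdk6* were 96.4% and 3.62%. Summed CPM per kb were then 176 and 12.2 for D-type cyclins, 285 and 134 for the kinases and, in TdTomato+ cells, 91.7 for inhibitors, and the ratio of inhibitors to D-type cyclins was 0.804 and 7.76. The cause of the changed list counts was not tested. The depth limits *Cdkn2c* (6 to 19 counts) and *Cdkn1a* (30 to 59 counts) in TdTomato+ libraries most.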
